A study of Sus scrofa with 16 samples.

Results

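The regions described here are the surroundings of a pair of vascular genes of the pig, ERG and FGFR2, in the DNA methylation landscape of the heart. ERG was represented by bases 212021501 to 212222000 of chromosome 13 and FGFR2 by bases 142460001 to 142660500 of chromosome 14, both in the Sscrofa10.2 build. Each region was 1 window of 500 bp that the study had listed as differentially methylated in an intron of the gene, extended by 100 kb on both sides. The regions were thus chosen by a readout of these same animals, namely the comparison of Tibetan highland with Yorkshire highland pigs, and values of that comparison are given below as a description without a test. Of the 1159046 methylation peaks of the 4 groups, 292 overlapped these regions, with 198 at ERG and 94 at FGFR2.

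The animals were 16 castrated boars of 6 months of age, with heart tissue sampled from 4 Tibetan pigs raised in the highland (TH), 4 Yorkshire pigs raised in the highland (YH), 4 Tibetan pigs raised in the lowland (TL) and 4 Yorkshire pigs raised in the lowland (YL). The parent herds of YH and TL had been brought to the highland and to the lowland, respectively, in recent years, and no such move is stated for TH and YL. The study also marks ERG in the other comparisons within a place or a breed as well and FGFR2 in all of them but TH vs TL, at windows not analysed here, and TH vs TL and YH vs YL reuse the TH and YH animals. The p-values below are therefore not independent of the choice of the genes and are given only to set a difference against the spread between animals. Methylated DNA was mapped by MeDIP-seq, in which sonicated DNA is pulled down with an antibody against methylated cytosine and the bound fragments are sequenced. A peak is a stretch where the mapped fragments, called tags, pile up above the local background, the fold enrichment is the ratio of the tags to that background, and the summit is the base with the highest pile. Neither value is a fraction of methylated molecules. The peak lists hold no expression values, and the tissue label was not checked against markers.

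ERG is a transcription factor of the ETS family that is made in endothelial cells, where it maintains the identity of the vessel wall and takes part in the growth of new vessels. FGFR2 is a receptor tyrosine kinase on the cell surface that binds fibroblast growth factors and passes their signal into the cell. In mammalian genomes, methylation of cytosine in the body of a gene is common, whereas active promoters and enhancers usually carry little of it. In the gene order of a later assembly, Sscrofa11.1, ERG stands between KCNJ15 and ETS2 on chromosome 13, and FGFR2 between WDR11 and ATE1 on chromosome 14. No exon or promoter positions of the Sscrofa10.2 build were used here, so no peak other than those at the listed intron windows is assigned to a part of a gene.

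One list of peaks was available for each group, holding 280678 peaks for TH, 259066 for TL, 287224 for YH and 332078 for YL. No base of the genome lay under more than 4 peaks of a list, which is the number of animals in a group, and each list was therefore read as the joined peaks of 4 unnamed animals. Peaks of the 4 lists that shared at least 1 bp were joined into clusters, and the largest number of peaks of a list over any base of a cluster, from 0 to 4, was taken to be how many animals had a peak there. Across the genome there were 242875 clusters, of which 27 lay at ERG and 15 at FGFR2, numbered here along the chromosome within each gene. The median cluster held peaks of 7 animals at ERG and 5 at FGFR2, and of 3 over all clusters. Positions along each gene are given as the distance of the median summit of a cluster from the centre of the intron window, with the sign of the chromosome coordinate.

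The ERG region was rich in peaks in all 4 groups, with 56 peaks in TH, 52 in TL, 44 in YH and 46 in YL. These numbers correspond to 279, 259, 219 and 229 peaks per Mb, against 103, 94.3, 105 and 121 peaks per Mb over chromosomes 1 to 18 and X of the same lists. Among 12929 bins of the same length, 200500 bp, the upper quartile was 31 peaks in TH and in YH, 28 in TL and 36 in YL, and the ERG region lay above it in every group. The FGFR2 region held 28 peaks in TH, 16 in TL, 23 in YH and 27 in YL, or 140, 79.8, 115 and 135 peaks per Mb. At FGFR2 the TL value lay below the density of the TL list, but with 50 or 200 kb on each side it was 99.5 or 107 peaks per Mb and lay above it. The numbers of all 4 groups at FGFR2 lay between the lower and the upper quartile of the bins. By breed there were 108 Tibetan and 90 Yorkshire peaks at ERG and 44 Tibetan and 50 Yorkshire peaks at FGFR2, against 539744 Tibetan and 619302 Yorkshire peaks over the whole lists. As there was 1 list per group, these counts have no spread between animals and were not tested.

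**Figure D1:**
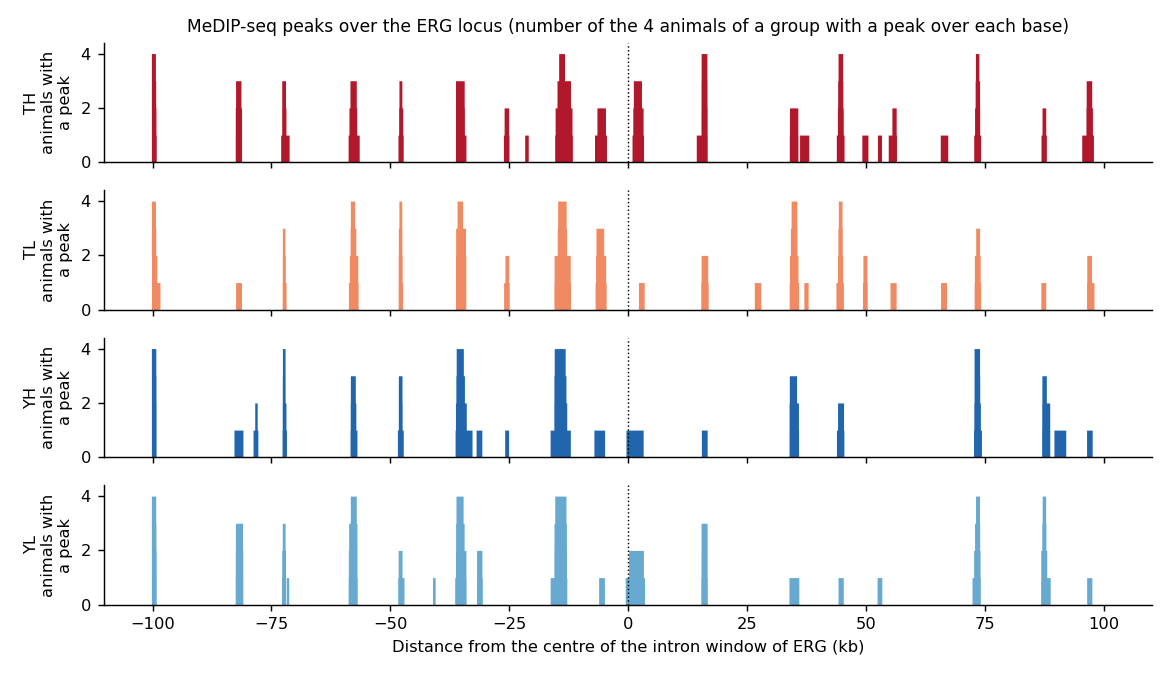
Number of animals of each group (0 to 4, y axis) with a peak over each base of the ERG region, against the distance from the centre of the intron window (dotted line, kb). Columns of 4 animals stand at the same place in all 4 groups only at cluster 1, at the left end, and cluster 12 (-13.9 kb). The columns between about +27.1 and +66.3 kb are more numerous in TH and TL than in YH and YL.

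**Figure D2:**
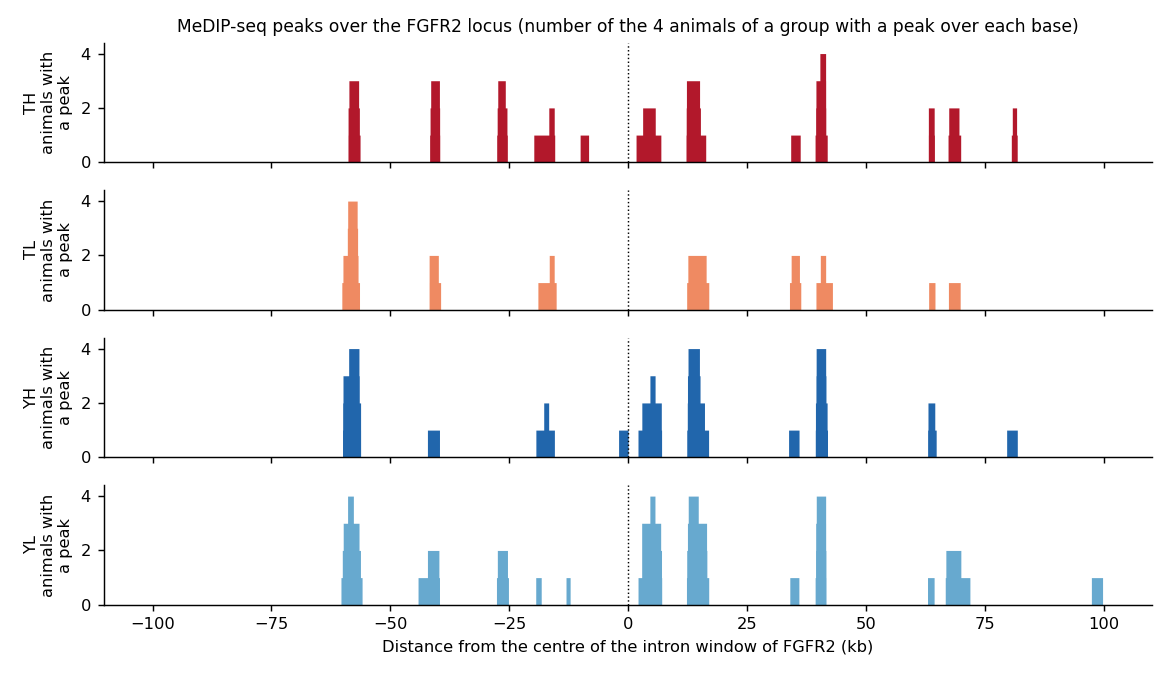
Number of animals of each group (0 to 4, y axis) with a peak over each base of the FGFR2 region, against the distance from the centre of the intron window (dotted line, kb). The cluster at +4.9 kb is present in TH, YH and YL and missing in TL, and no group has a peak in the leftmost part of the region.

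The peaks at both genes were long and only moderately enriched compared with the lists they came from. At ERG the median length of a peak was 1460 bp for TH, 1360.5 bp for TL, 1495.5 bp for YH and 1414.5 bp for YL, and at FGFR2 it was 2121, 2258, 2534 and 2531 bp, while the medians of the lists were 995, 943, 1027 and 1045 bp. The longer peaks also held more tags, with a median of 51, 43.5, 51.5 and 53 tags per peak at ERG and of 85.5, 76.5, 96 and 114 at FGFR2 in the same order of groups, against 27, 25, 29 and 30 in the lists. The median fold enrichment was 7.29 in TH, 6.0 in TL, 5.8 in YH and 5.99 in YL at ERG and 6.02, 4.99, 4.79 and 4.84 at FGFR2, below the medians of 8.28, 7.88, 7.29 and 7.49 of the lists in every group. Of the ERG peaks, 93 of 198 (47.0%) were among the 25% of their list with the lowest fold enrichment, and of the FGFR2 peaks 71 of 94 (75.5%). Peaks covered between 15.2% (YL) and 19.2% (TH) of the ERG region and between 12.1% (TL) and 18.1% (YL) of the FGFR2 region.

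At the intron window of ERG itself, bases 212121501 to 212122000, peaks were present in Yorkshire animals and in no Tibetan animal. One YH peak spanned all 500 bp of the window, with a fold enrichment of 4.21 and 111 tags. In YL, 1 peak spanned the window (fold enrichment 3.33, 120 tags) and another overlapped its last 129 bp (fold enrichment 3.84, 82 tags). The 3 TH peaks of the same cluster, number 14, began 578, 739 and 854 bp beyond the window, and the 1 TL peak began 1926 bp beyond it. The summits of all 7 peaks of this cluster lay outside the window, between bases 212123497 and 212124321, so that the window was reached only by the left flank of the longest peaks. The TH and TL peaks were more enriched, with 5.02, 7.22 and 4.65 in TH and 7.82 in TL, on fewer tags (77, 52, 38 and 34). The number of animals with a peak in cluster 14 was 3 in TH, 1 in TL, 1 in YH and 2 in YL.

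The intron window of FGFR2, bases 142560001 to 142560500, was touched by a single peak of 1 YH animal, which overlapped 257 bp and was the only peak of cluster 7. It had a fold enrichment of 3.80, 55 tags and its summit at base 142558475, to the left of the window. No TH, TL or YL peak reached the window, and the nearest peaks of other groups began 1426 bp (TH) and 1842 bp (YL) to its right, in cluster 8. TL had no peak within 2000 bp of the window.

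**Figure D3:**
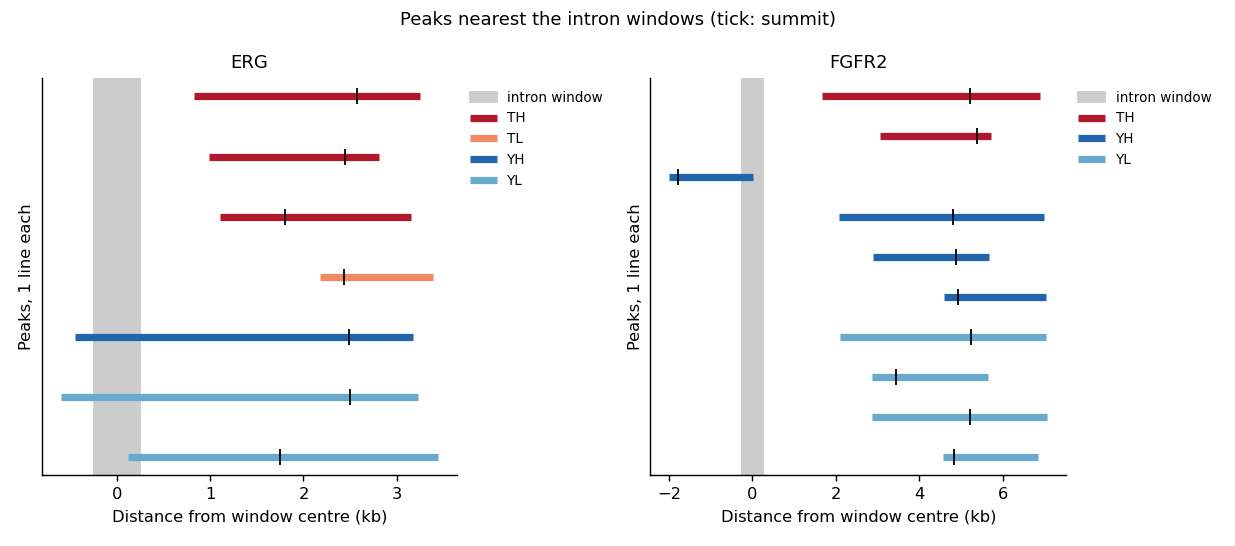
Peaks of the clusters at the intron windows (grey band), 1 line per peak coloured by group, with the summit as a tick, against the distance from the window centre (kb). At ERG only the YH and YL peaks extend over the band, and at FGFR2 only 1 YH peak does, while all summits lie outside the bands.

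A second window was listed for TH vs YH in each region, both named intergenic, and neither had a peak over it in any group. Windows of the other comparisons were not looked at here. The one at bases 212023501 to 212024000, near the left end of the ERG region, had 4 peaks of every group within 2000 bp, all of cluster 1. The one at bases 142578001 to 142578500, to the right of the FGFR2 window, had 1 TH, 2 YH, 2 TL and 3 YL peaks within 2000 bp, all of cluster 9. Peaks of cluster 9 were found in 3 TH, 4 YH, 2 TL and 4 YL animals, with summits between bases 142573025 and 142574510 (+13.8 kb). The fold enrichment of cluster 9 was 6.24, 5.03 and 4.83 in TH, 4.78 and 5.07 in TL, 4.76, 3.34, 4.80 and 3.04 in YH, and 4.36, 3.41, 4.18 and 4.45 in YL. Every Tibetan value lay above every YL value. The smaller of the TL values (4.78) and the lowest TH value (4.83) stood beside YH values of 4.76 and 4.80. With 3 TH and 2 TL peaks this order was not tested, and no share over the genome was computed for it. The median fold enrichment of the whole lists was also higher in TH (8.28) and TL (7.88) than in YL (7.49). Between YH and YL the mean log2 fold enrichment at cluster 9 differed by -0.0634 (SE 0.192, n = 4 and 4).

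**Figure D4:**
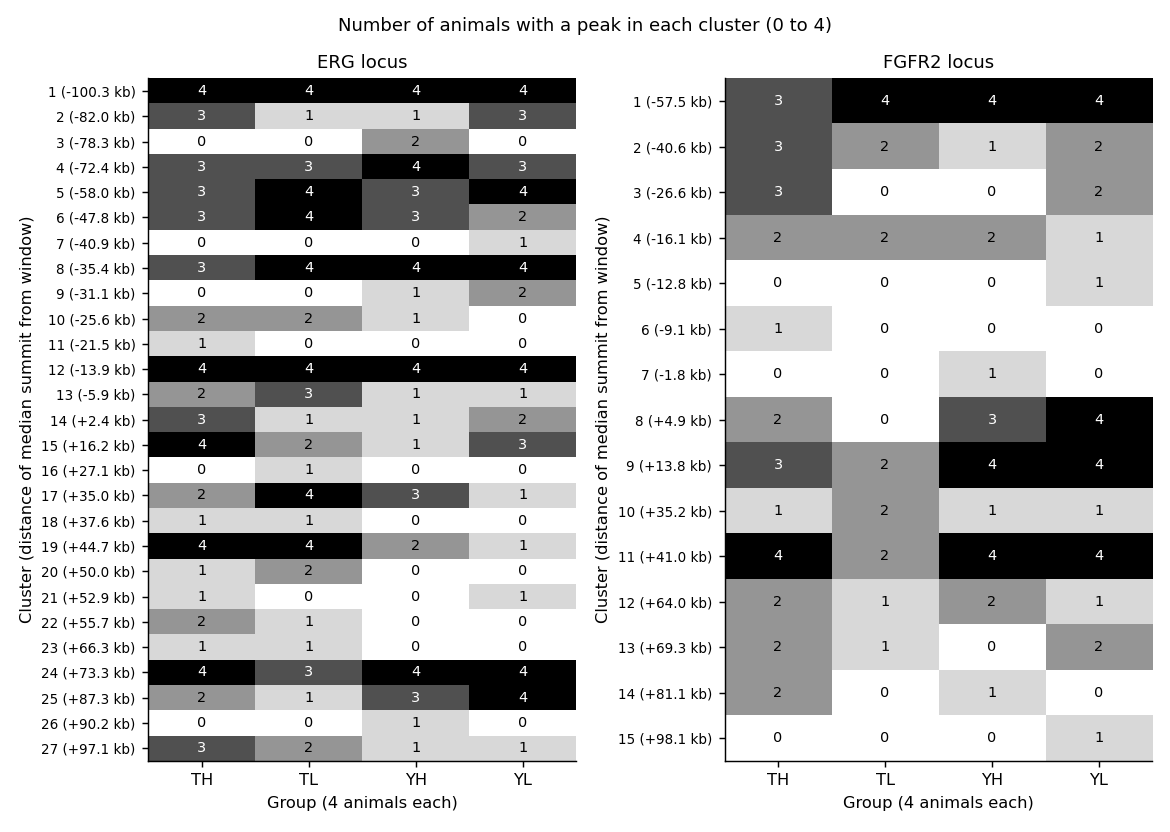
Number of animals (0 to 4, printed and shaded from white to black) with a peak in each of the 27 ERG clusters (left) and 15 FGFR2 clusters (right), for the 4 groups on the x axis. ERG clusters 1 and 12 have 4 animals in every group, and FGFR2 cluster 8 has 0 in TL and 4 in YL.

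FGFR2 cluster 8, bases 142561927 to 142567319 (+4.9 kb), was the only one of the 42 clusters with a peak in all animals of 1 group and no animal of another within a breed or a place of raising. Its peaks were found in 2 TH, 3 YH, 0 TL and 4 YL animals. The YL peaks had 173, 84, 148 and 130 tags and a fold enrichment of 4.02, 4.42, 4.84 and 3.79. The YH peaks had 185, 94 and 98 tags (4.80, 4.79 and 4.45), and the TH peaks 189 and 77 tags (4.54 and 3.83). The groups with peaks overlapped in both values, and the peaks were broad, up to 5216 bp in TH. Fisher's exact test for TL vs YL gave p = 0.0286, the smallest value possible with 4 against 4 animals, and p = 1.0 after Benjamini-Hochberg adjustment over all clusters. The same pattern of 4 against 0 between TL and YL was found at 1547 clusters of the genome, or 0.637% of all and 2.43% of the 63580 clusters with peaks in at least 4 of these 8 animals, and 1334 of the 1547 had the YL animals as the side with peaks. The TL list was the shortest of the 4 and the YL list the longest. With each list cut to the length of the shortest by the highest tags, an alternative chosen after seeing the data, the cluster was again 0 against 4, but all 4 YL peaks held more tags than the median of 30 of their list, so that this cut left them in place. On a grid of 500 bp windows, 2 windows of cluster 8 had the middle base under a peak in 4 YL and 0 TL animals, as did 0.597% of the 674600 windows under a peak for TL vs YL in either direction. Without the 25% of each list with the lowest fold enrichment it was no longer called.

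No cluster at ERG or FGFR2 had a peak in 4 animals against 0 for TH vs TL or for YH vs YL, where 0.182% and 0.219% of all clusters did. For both comparisons Fisher's exact test gave no unadjusted p below 0.05 at any of the 42 clusters. For TH vs YH, the comparison by which the regions had been chosen, there was no such cluster either, with 0.385% over the genome. On the same grid, the middle base of 1 window lay under a peak in 4 YH animals and no TH animal, a pattern of 0.37% of the windows for TH vs YH in either direction. It was at bases 212106001 to 212106500 in the left flank of ERG cluster 12, where 2 TL and 3 YL animals had a peak. The 4 TH peaks of that cluster began at bases 212106314, 212106405, 212106802 and 212107153, and the 4 YH peaks at 212105356, 212106138, 212106153 and 212106219, all to the left of the TH peaks.

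Only ERG clusters 1 and 12 had peaks in all 16 animals, which is 4.76% of the 42 clusters, against 1.82% of all clusters of the genome. Cluster 1, bases 212020250 to 212023310 (-100.3 kb), extended beyond the left end of the region. Its fold enrichment was 5.10, 9.05, 6.37 and 7.58 in TH, 5.79, 5.21, 5.60 and 6.57 in TL, 5.08, 5.03, 4.97 and 5.78 in YH, and 6.68, 7.42, 5.21 and 5.28 in YL. The means were 7.03 ± 1.69 (SD, n = 4) in TH, 5.79 ± 0.572 in TL, 5.21 ± 0.379 in YH and 6.15 ± 1.09 in YL, and the ranges of the groups overlapped in each comparison. The difference in mean log2 fold enrichment was 0.25 for TH minus TL (SE 0.190), -0.223 for YH minus YL (SE 0.136) and 0.401 for TH minus YH (SE 0.184). For TL minus YL it was -0.0742 (SE 0.145, exact permutation test with n = 4 and 4, p = 0.629).

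The summits of cluster 1 fell at either of a pair of places, between bases 212021365 and 212021446 on the left or between 212021978 and 212022008 on the right. They lay between 212021401 and 212021446 in all 4 YL animals, whereas in YH and TL 2 animals each had the summit at the left place and 2 at the right. In TH, 3 summits lay at the left place and 1, at base 212021978, at the right. This position was examined after the values had been seen and was not tested.

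ERG cluster 12, bases 212105356 to 212110034 (-13.9 kb), was the broadest cluster of that gene, with peaks of 1586 to 3721 bp and 54 to 152 tags. Its fold enrichment was 5.02, 4.70, 5.88 and 7.59 in TH, 5.95, 4.89, 5.72 and 5.11 in TL, 4.05, 4.86, 4.36 and 4.77 in YH, and 4.53, 4.10, 4.22 and 4.59 in YL. All 4 TL values lay above all 4 YL values, with means of 5.42 ± 0.499 (SD, n = 4) and 4.36 ± 0.237. The difference in mean log2 fold enrichment was 0.31 (SE 0.0774, exact permutation test over 70 assignments, p = 0.0286, the smallest possible, and adjusted p = 0.71 over 9002 clusters). Across the genome 4.02% of the clusters that could be tested for TL vs YL had no overlap, and ERG cluster 12 was the only one of the 5 clusters tested at the genes. Leaving out the YL peak of 4.53, 4.10 or 4.22 gave an exact permutation p of 0.0571, with log2 differences of 0.329, 0.281 and 0.295 and all TL values still above all YL values. On tags divided by peak length the sign was the opposite, with a log2 difference of -0.239 (exact p = 0.171). The difference for TH minus TL was 0.0771 (SE 0.168, exact permutation p = 0.743) and for YH minus YL 0.0466 (SE 0.0726, exact permutation p = 0.514). For TH minus YH it was 0.341 (SE 0.165), and the lowest TH value, 4.70, lay below YH values of 4.77 and 4.86.

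**Figure D5:**
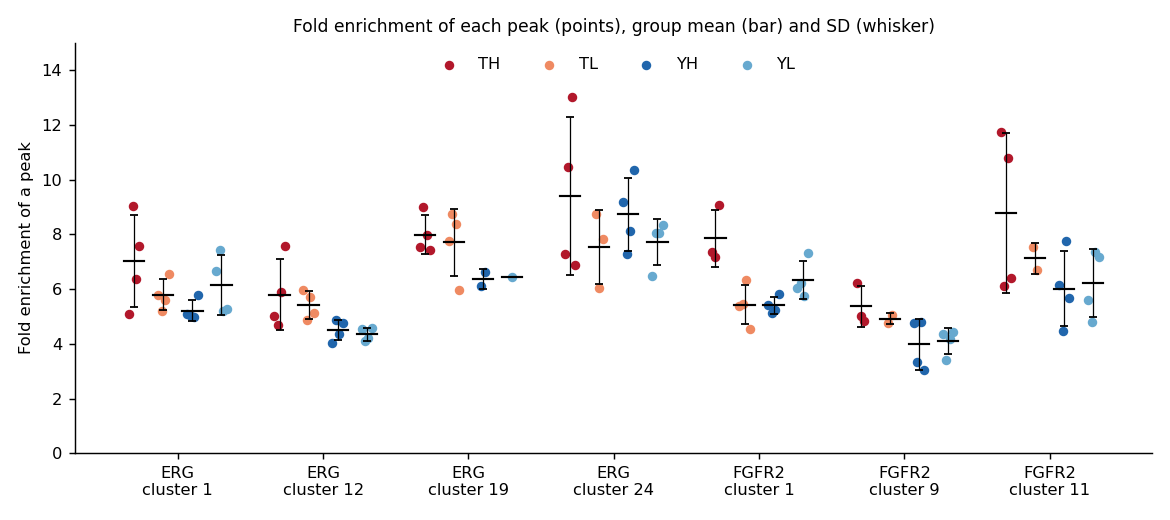
Fold enrichment (y axis, from 0) of each peak in 7 clusters of ERG and FGFR2, coloured by group, with the group mean as a bar and the SD as a whisker where a group has more than 1 peak. In ERG cluster 12 the 4 TL points lie above the 4 YL points, and in the other clusters with 4 peaks in both TL and YL the points overlap.

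The test of fold enrichment was run only where both groups had 4 peaks over a common base. This held at 5 clusters for TL vs YL, 3 for TH vs TL, 7 for YH vs YL and 4 for TH vs YH. None of these 3 and 7 clusters was without overlap for TH vs TL or YH vs YL, with 3.02% and 3.9% over the genome, and the exact permutation test gave no unadjusted p below 0.05 there. None of the 4 clusters was without overlap for TH vs YH either, where the genome-wide share was 6.01% and 334 of the 356 clusters had the higher values in TH. Over all clusters tested the median log2 difference was 0.183 for TH minus YH, 0.11 for TH minus TL, -0.0928 for YH minus YL and -0.0244 for TL minus YL.

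The most enriched peak of the ERG region lay in cluster 4, bases 212048695 to 212050465 (-72.4 kb), with a fold enrichment of 14.63 in a TH animal. The other TH values there were 11.18 and 12.40, the TL values 13.41, 10.24 and 8.24, the YH values 8.67, 9.30, 7.34 and 8.90, and the YL values 7.64, 9.25, 6.53 and, for a separate peak to the right, 7.96. All 3 TH values and the higher TL values lay above every Yorkshire value, and the lowest TL value lay among them. No share over the genome was computed for this order. The peaks were narrow, and apart from the separate YL peak all summits lay between bases 212049328 and 212049420. Peaks were found in 3 TH, 4 YH, 3 TL and 3 YL animals, so that in no comparison did both sides have 4 peaks over a common base, and fold enrichment was not tested there.

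The most enriched FGFR2 peak lay in cluster 11, bases 142599576 to 142603223 (+41.0 kb), again in a TH animal, at 11.74. The TH values were 11.74, 6.13, 10.80 and 6.41, the YH values 6.14, 4.48, 7.77 and 5.66, the TL values 7.53 and 6.71, and the YL values 5.59, 4.81, 7.35 and 7.16. A pair of TH animals thus lay above all others, while the remaining TH animals lay within the range of YH and YL. The mean was 8.77 ± 2.91 (SD, n = 4) in TH, 6.01 ± 1.36 in YH and 6.23 ± 1.23 in YL, with a log2 difference of 0.511 (SE 0.295) for TH minus YH and of -0.0565 for YH minus YL (SE 0.220, exact permutation test with n = 4 and 4, p = 0.857). In TL only 2 animals had a peak, and Fisher's exact test gave p = 0.429 against both TH and YL. Of the 14 summits, 13 lay between bases 142601187 and 142601321.

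Several clusters outside the naming rule were singled out after their values had been seen and are described without a p-value, although ERG clusters 19 and 24 and FGFR2 cluster 1 were among the clusters counted in the tests above. ERG cluster 19, bases 212165455 to 212167170 (+44.7 kb), had peaks in 4 TH and 4 TL animals but only in 2 YH animals and 1 YL animal. Its fold enrichment was 7.52, 9.01, 7.98 and 7.44 in TH, 7.74, 8.74, 8.39 and 5.97 in TL, 6.11 and 6.64 in YH and 6.45 in YL, and all 11 summits lay within 124 bp. A surplus of at least 5 Tibetan animals was found at 0.352% of all clusters and a surplus of at least 5 Yorkshire animals, as at FGFR2 cluster 8 (2 Tibetan and 7 Yorkshire animals), at 1.44%.

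Cluster 19 stood in a stretch of 8 ERG clusters, numbers 16 to 23, from +27.1 to +66.3 kb, whose ends were set after its surplus of Tibetan peaks had been seen. The stretch held 12 TH, 14 TL, 5 YH and 3 YL peaks, or 26 Tibetan against 8 Yorkshire peaks, and 7 of its clusters had more Tibetan than Yorkshire animals while 1 had equal numbers. To the right of the stretch, cluster 24 (+73.3 kb) had peaks in 15 animals and cluster 25 (+87.3 kb) in 3 Tibetan and 7 Yorkshire animals. Cluster 26 had a peak in 1 Yorkshire animal only, and cluster 27 (+97.1 kb) again had more Tibetan animals, 5 against 2. To the left, clusters 13, 14 and 15 also had more Tibetan animals (5 against 2, 4 against 3 and 6 against 4). The surplus was thus not confined to the stretch, nor present at every cluster beside it. Over the whole ERG region 14 of 27 clusters had more Tibetan animals, 8 more Yorkshire animals and 5 equal numbers, against 35.5%, 48.0% and 16.4% of all clusters of the genome.

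At FGFR2 the breeds were even, with 7 clusters of more Tibetan, 7 of more Yorkshire and 1 of equal numbers. Here the Tibetan groups differed in number, with more TH than TL animals at 9 of 15 clusters and fewer at 2, against 33.8% and 28.0% of all clusters. FGFR2 cluster 3, bases 142532572 to 142535090 (-26.6 kb), had peaks in 3 TH and 2 YL animals and in no YH or TL animal. Its fold enrichment was 4.79, 5.47 and 6.09 in TH and 6.62 and 4.90 in YL, and the 5 summits lay within 78 bp. A peak in 3 or more TH animals and no TL animal was found at 1.2% of all clusters.

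FGFR2 cluster 1, bases 142499870 to 142504311 (-57.5 kb), was the leftmost of that gene, and no list had a peak between the start of the region at 142460001 and this cluster. It had peaks in 15 animals, 1 TH animal being without. The fold enrichment was 7.34, 7.19 and 9.06 in TH, 5.40, 5.47, 6.33 and 4.55 in TL, 5.41, 5.14, 5.25 and 5.83 in YH and 6.03, 6.22, 5.76 and 7.33 in YL. The 3 TH values lay above all YH and TL values, but with 3 TH peaks these comparisons were not tested. No share over the genome was computed for 3 against 4 peaks. Among clusters with 4 peaks in both groups, 6.01% were without overlap for TH vs YH and 3.02% for TH vs TL. The median log2 differences over those clusters were 0.183 for TH minus YH and 0.11 for TH minus TL. The difference in mean log2 fold enrichment was -0.224 for YH minus YL (SE 0.0855) and -0.224 for TL minus YL (SE 0.123). On tags divided by peak length the log2 differences were 0.11, of the opposite sign, and -0.0444. The summits of FGFR2 cluster 1, like those of ERG cluster 1, fell at a pair of places. All 4 YL summits lay between bases 142501862 and 142501902 and all 3 TH summits between 142502866 and 142502969, while YH had 2 at each place and TL 1 at the left and 3 at the right.

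The clusters not described so far ranged from 1 animal to 15 animals, the most at ERG cluster 8 (-35.4 kb). Peaks of a single animal made up 4 clusters at ERG and 4 at FGFR2, which is 8 of the 42 against 30.1% of all clusters, and 10 of the 42 (23.8%) had peaks in at least 12 animals against 10.4%. At none of the 42 clusters did the highland animals outnumber the lowland animals by 5 or more, or the reverse, which was found at 0.148% and 0.299% of all clusters. Highland animals were in surplus at 10 ERG and 9 FGFR2 clusters, or 45.2% of the 42 against 37.5% of all clusters, and lowland animals at 7 and 5, or 28.6% against 42.6%.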

How the data were processed

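Heart DNA of 16 pigs was analysed by MeDIP-seq. Per the methods and labels, the authors trimmed reads (FASTX, 0.0.13), aligned them to the Sscrofa10.2 build of Ensembl release 69 (Bowtie, 0.12.8) and scanned for peaks with MACS 1.4, keeping a DiffScore of 50 or more. The deposited lists give for each peak its tags, a raw count by the authors' caller, and its fold enrichment, a ratio to the local background. Reads per animal were not analysed here, so tags are not on a common depth. Peak ends were taken from the joint start and end field. Peaks were joined with pandas (2.3.3), NumPy (2.4.6) and SciPy (1.17.1).

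Numbers of animals were compared by the two-sided Fisher's exact test, adjusted by Benjamini-Hochberg over all clusters. Mean log2 fold enrichment was compared by the two-sided exact permutation test. Its p was adjusted in the same way, but only over clusters where both groups had exactly 4 peaks over a common base. With 4 against 4 animals neither p can go below 0.0286. The counts of animals and the permutation test were tested on simulated data.

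Clusters were named if they lay within 2000 bp of a listed window, had peaks in all 16 animals, in all 4 animals of 1 group and none of another, in all animals of 1 breed or place and none of the other, or held the highest fold enrichment of the gene. The genes, regions and vascular genes were chosen with earlier results of these data known.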

Additional observations from a re-analysis of the deposited data

Results flagged for a closer look

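Among 64 groups of 4 values at ERG and FGFR2, 2 had a value far from the other 3, where chance gives about 1 in 20. In YH, 1 peak of ERG cluster 1 had a fold enrichment of 5.78, above the other values of 4.97, 5.03 and 5.08. In YL, 1 peak of ERG cluster 24 had a fold enrichment of 6.49, below the other values of 8.04, 8.06 and 8.35. This was the longest YL peak of the cluster, at 1696 bp, and held 57 tags.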

How the results depend on the processing

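Regions with 50 or 200 kb on each side, peaks with at least 20 tags, and lists cut to the length of the shortest (chosen after seeing the data) moved no peak density by more than 1.5 times. Without the 25% of each list with the lowest fold enrichment, the density at ERG was 165 peaks per Mb in TH and 120 in the other groups, and at FGFR2 39.9 in TH and YL, 20 in TL and 15 in YH, and no cluster (0) was 4 against 0 for TL vs YL. Over the middle bases of 500 bp windows there were 2 such windows for TL vs YL, both in FGFR2 cluster 8, and 1 for TH vs YH. With 3 or more animals against 0 there was 1 cluster for TH vs TL and 1 for TH vs YH, both FGFR2 cluster 3.

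On tags divided by peak length no cluster (0) differed between TL and YL, the log2 difference of ERG cluster 12 was -0.239, and that of FGFR2 cluster 1 for YH minus YL was 0.11. With each peak left out in turn, the number of clusters with an unadjusted exact p below 0.05 ranged from 0 to 1 for TL vs YL and for YH vs YL and was 0 for TH vs TL. For TH vs YH, as a description, the number of clusters without overlap ranged from 0 to 1. ERG cluster 12 had an exact p of 0.0571 without the YL peak of 4.53, 4.10 or 4.22, with log2 differences between 0.264 and 0.358 over all 8 omissions. For YH vs YL the count of 1 came from a single omission, that of the YL peak of 5.76 at FGFR2 cluster 1 (log2 difference -0.268). With all its peaks, and with any other peak left out, the exact p of that cluster was not below 0.05. Its log2 differences ranged from -0.268 to -0.152 over the 8 omissions, and it had been singled out after its values were seen. The difference at ERG cluster 1 for TL minus YL ranged from -0.148 to 0.0218 and that at FGFR2 cluster 11 for YH minus YL from -0.189 to 0.0757. The causes were not tested.

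No paired analysis was possible because the peaks carry neither an animal's name nor its number. Reads per animal could not be tied to unnamed peaks and were not used here, and a missing peak says only that the pile-up did not pass the authors' threshold.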

Other observations

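Other genes of the vascular terms were examined only where the available part of the study's window listing, for TH vs YH and TL vs YL, named them. It held 3 intron windows at ENG, a co-receptor of the TGF-beta family in endothelial cells. There was 1 at TBX4, a T-box transcription factor, and 10 at LEP, which encodes leptin. EPAS1 and ANGPT2, which the paper also places under angiogenesis, were not examined. Between 0 and 3 peaks of any list overlapped each of these 14 windows by at least 1 bp. No ENG or TBX4 window had peaks in more than 1 animal of a group. The highest number was 3 YL animals at the LEP window at bases 293760501 to 293761000 of chromosome 1, with 1 TL and 0 YH and TH animals. The study listed this window for TL vs YL, so the values are a description. The windows named LEP lie on chromosome 1 of Sscrofa10.2, whereas Sscrofa11.1 places LEP on chromosome 18, so the gene name of these windows is uncertain.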
